A study of Macaca mulatta with 32 samples.

Results

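The circRNAs of 7 calcium/calmodulin-dependent protein kinase (CaM kinase) genes were followed across the rhesus macaque brain. A circRNA is a closed loop of RNA made when the end of an exon is joined back to an upstream start, and it is recognised by the reads that cross this back-splice junction. All entries of the deposited table whose host gene symbol was CAMK2A, CAMK2B, CAMK2D, CAMK2G, CAMK4, CAMK1D or CAMKK2 were taken, which gave 71 of 52828 circRNAs, from 7 of 8180 host gene entries.

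The libraries came from 8 brain regions of female and male macaques aged 10 or 20 years. From the cerebral cortex came the prefrontal (PFC), temporal (TC), parietal (PC), occipital (OC) and posterior cingulate (PCC) areas, from the hippocampus cornu ammonis 1 (CA1) and the dentate gyrus (DG), and from the cerebellum its cortex (CB). Each library held the pooled RNA of 2 animals of one sex and age, so each region had 4 libraries, named for the pools 10F, 10M, 20F and 20M, and the same 8 animals recur in every region. The RNA of all 32 libraries came from tissue, was depleted of ribosomal RNA and was digested with RNase R, an exonuclease that degrades linear RNA. In such bulk samples fewer cells of a type and less RNA per cell cannot be told apart, and the p-values below measure the spread between these pooled libraries.

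CaM kinases are switched on when calcium enters a neuron and binds calmodulin, which then binds and opens the kinase. CAMK2A, CAMK2B, CAMK2D and CAMK2G encode the alpha, beta, delta and gamma subunits of CaMKII, a multi-subunit enzyme that is abundant at excitatory synapses and is known for its part in synaptic plasticity and memory. CAMKK2 encodes an upstream kinase that phosphorylates and activates CAMK4, a largely nuclear kinase that acts on transcription factors such as CREB, and the members of the CaMKI family, to which CAMK1D belongs.

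Divergent primers point away from each other on the linear transcript and give a product only across a back-splice junction. The study designed such pairs for 2 of the 71 circRNAs, and they are shown because they define which CAMK4 and which CAMK2G molecule was singled out. The CAMK4 pair was made for chr6:107735785-107762101 on the plus strand and the CAMK2G pair for chr9:63194479-63201821 on the plus strand, in the coordinates of the table, whose genome build is not given in the sources used here.
CAMK4 forward: gttgtgcctatggacctgag
CAMK4 reverse: gctggagttgcatagagaagat
CAMK2G forward: cccttggtaacctcgtggag
CAMK2G reverse: ctcatcttctgtggtggtgttg
The CAMK2G circRNA was the most abundant of its gene, with 658 reads in 25 libraries. The CAMK4 circRNA had 33 reads in 5 libraries, at 9.42 TPM in the TC library of pool 10F, 5.18 and 6.91 TPM in the PC libraries of 10F and 20F, and 6.01 and 5.43 TPM in the CB libraries of 10M and 20F. It was not the circRNA that carried most CAMK4 reads.

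Values are in the TPM of the table, in which the reads of a back-splice junction were multiplied by 1 constant per library. A circRNA is counted at a single junction, with no scaling for length. A listed 0 stands for fewer than 2 reads. The libraries held 18813 to 894932 back-splice reads (median 179118), so that 2 reads were worth 0.58 to 37.4 TPM. The CB library of pool 10F stood apart as the shallowest, at 37.4 TPM for 2 reads, against 2.17 to 4.40 TPM in the other 3 CB libraries. The summed level of 12 cerebellar neuron markers, 8 of which had a circRNA, was 368 to 861 TPM in CB and 0 to 153 TPM elsewhere, and the shallow library had the highest of these sums. Of 7 forebrain excitatory neuron markers 4 had a circRNA, and they summed to 0 to 21.0 TPM in CB and 4.11 to 500.5 TPM elsewhere. This sum was mainly CUX2, with a mean of 198.5 of 216.7 TPM outside CB and 12.1 of 12.1 TPM in CB. The other lists covered CB and the rest at 0 to 59.4 and 6.16 to 115 TPM for inhibitory neurons, 0 to 9.02 and 0 to 91.0 TPM for oligodendrocytes, 0 and 0 to 36.4 TPM for astrocytes, and 0 to 6.01 and 0 to 47.3 TPM for microglia, and none of the 3 dentate granule cell markers had a circRNA, so the DG label could not be checked.

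CAMK2G gave rise to 15 circRNAs, CAMK2D to 12, CAMK4 to 11, CAMK2A to 10, CAMK1D to 9, and CAMK2B and CAMKK2 to 7 each. Of the 71, 58 (81.7%) were annotated as exonic by the table and 13 as intronic, beside 83.3% exonic among the 41209 circRNAs with a host gene. Detection was patchy: 36 (50.7%) were found in a single library, against 53.1% of all hosted circRNAs, and only 4 were found in at least 16 libraries (5.63% against 6.52%). The 36 single-library circRNAs had 2 to 90 reads (median 7.5). The median distance between the 2 ends on the genome was 11845 bases, against 6279 bases for all hosted circRNAs, with a range from 166 to 121830 bases. An end was shared with another circRNA of the same gene and strand by 56 (78.9%, against 73.0%). On the strand opposite to the other circRNAs of their gene lay 3 of the 71, at chr6:146708012-146727409 in CAMK2A, chr3:82095699-82102061 in CAMK2B and chr11:122485320-122499236 in CAMKK2, and these may belong to an overlapping gene on that strand.

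The 7 genes together held 6099 reads, 0.0852% of all back-splice reads, and 0.0334% to 0.237% of a library (median 0.102%). The 3 deeper CB libraries had the highest shares, 0.237% in 10M, 0.208% in 20M and 0.196% in 20F, and the shallow CB library had 0.0425%. A few molecules carried most of these reads. In CAMK2A the 316-base circRNA at chr6:146730805-146731120 on the minus strand had 721 reads in 25 libraries, 77.7% of the reads of its gene. In CAMK4 the circRNA at chr6:107634401-107685241 on the plus strand had 1289 reads in 18 libraries (76.7%), and in CAMKK2 the one at chr11:122341520-122343749 on the minus strand had 355 reads in 13 libraries (67.7%). CAMK2D was spread most evenly, since its most abundant circRNA, at chr5:106356958-106374304 on the minus strand, held 91 reads or 23.0%. The plot of reads against libraries shows that these few circRNAs lie apart from a large group of rare ones.

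**Figure D1:**
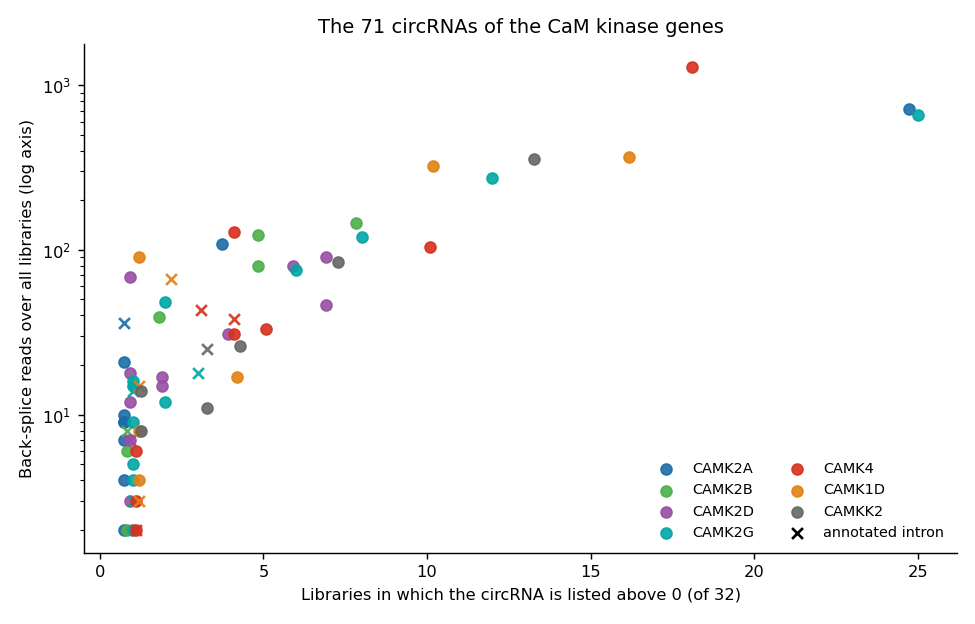
Each point is 1 of the 71 CaM kinase circRNAs, coloured by host gene, with the number of libraries in which it was found on the x axis and its back-splice reads over all 32 libraries on the y axis (log scale). The CAMK4 circRNA with 1289 reads is the highest point, and 36 circRNAs stand at 1 library.

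The design asks whether circRNA levels differ between brain regions. Values were summed per host gene and region was tested with limma on log2(TPM + 2.455), each region against the mean of the other 7, with Benjamini-Hochberg adjustment over all 5484 host genes tested. Of the 56 gene-by-region pairs of the CaM kinases 2 were called (adjusted p under 0.05), beside 0.859% of all pairs. Both were in CB, where CAMK2A was lower and CAMKK2 was higher, so 2 of the 7 genes were called there beside 5.03% of all host genes. The median log2 difference of the 7 genes in CB was -0.12, against -0.07 over all host genes. The plot of the sums by library shows how far the libraries of a region lie apart.

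**Figure D2:**
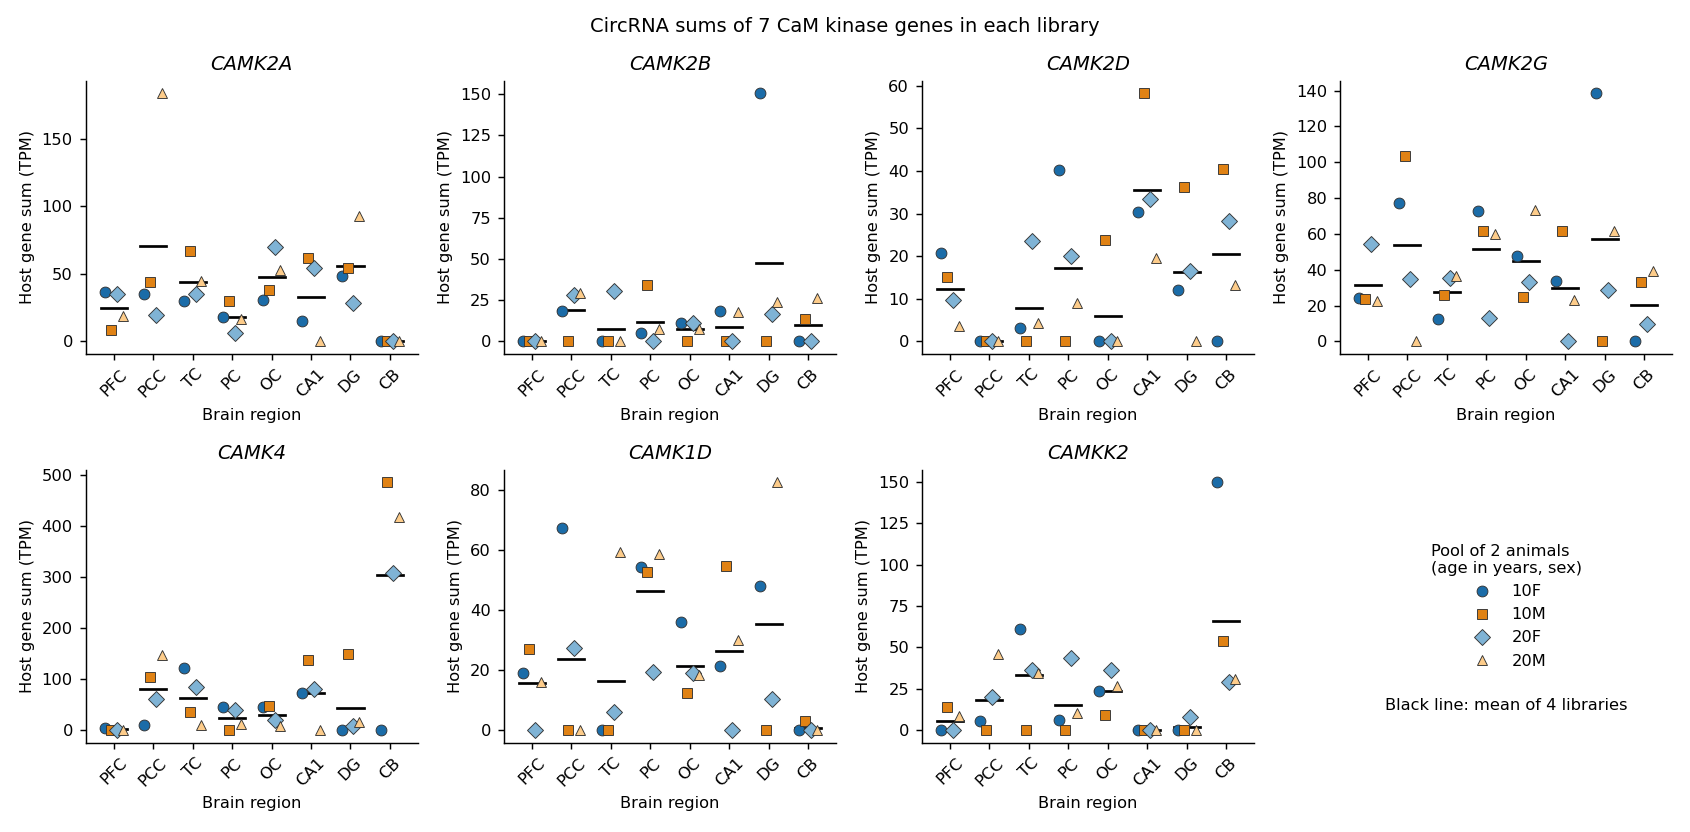
Summed circRNA level (TPM) of each CaM kinase gene in the 32 libraries, with the region on the x axis, 1 panel per gene, and a symbol for each of the pools 10F, 10M, 20F and 20M. CAMK2A is at 0 in all 4 CB libraries, and CAMK4 is between 308 and 485 TPM in 3 CB libraries and at 0 in that of pool 10F.

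CAMK2A, the alpha subunit of CaMKII and a gene typical of forebrain excitatory neurons, was listed at 0 in all 4 CB libraries. In the other 28 libraries it ranged from 0 to 184 TPM with a median of 35.3 TPM. In the CB library of 10F 2 reads were worth 37.4 TPM, above this median, so the 0 there says little. The groups overlapped only through the CA1 library of pool 20M, the 1 library outside CB that was at 0. That library was among the 5 with over 95% clean reads. The difference on the log2(TPM + 2.455) scale was -3.80 ± 0.56 (SE; limma adjusted p = 2.52e-05), a size that depends on the pseudocount because the CB level is 0 and that is no fold change. On the TPM scale the exact permutation test of 4 against 28 libraries gave p = 0.0431 (two-sided, unadjusted). The order of the regional means ran from PCC (70.6 ± 76.1 TPM, SD, n = 4) through DG (56.1 ± 27.0), OC (48.0 ± 17.4), TC (44.3 ± 16.3), CA1 (32.9 ± 29.98), PFC (24.8 ± 13.3) and PC (17.8 ± 9.81) to CB. Among its neighbours only PC and CB did not overlap, and the high PCC mean came from the 184 TPM of pool 20M, while the other 3 PCC libraries were at 19.3, 35.2 and 44.2 TPM. SLC17A7 and BCL11B of the forebrain excitatory list were also listed at 0 in all CB libraries and CUX2 was lower there (log2 difference -3.75 ± 0.56, limma adjusted p = 2.97e-05). Their part in the CAMK2A result was not tested.

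The 316-base circRNA of CAMK2A held 77.7% of the reads of its gene, so its result is largely that of the gene sum. Of the 71 circRNAs 31 passed the filter on low reads and were tested singly, 43.7% against 33.6% of all hosted circRNAs. The 316-base circRNA was the 1 of these called in CB, beside 2.67% of the 17050 circRNAs tested (log2 difference -3.39 ± 0.61, limma adjusted p = 0.000834). Outside CB it was found in 25 of 28 libraries at up to 112 TPM, with a median of 30.9 TPM. The second circRNA of the gene, at chr6:146718464-146727426, shared no end with it. It was found in 4 libraries, all from animals of 20 years, at 72.2 TPM in PCC, 10.4 and 17.3 TPM in OC and 38.7 TPM in DG.

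CAMK2B, the beta subunit, which binds actin in dendritic spines, was found in 17 libraries and was at 0 in all 4 PFC libraries. Its regional means fell from DG (47.6 ± 69.2 TPM, SD, n = 4) through PCC (18.98 ± 13.6), PC (11.8 ± 15.4), CB (9.98 ± 12.7), CA1 (9.04 ± 10.4), TC (7.67 ± 15.3) and OC (7.55 ± 5.33) to PFC, and all neighbours overlapped. The DG mean came from 150 TPM in pool 10F, where the other 3 DG libraries were at 0, 16.4 and 23.7 TPM. No region was called for the gene sum, and PFC had a log2 difference of -1.91 ± 0.85 (limma adjusted p = 0.619), while with voom on the recovered reads CAMK2B was called lower in PFC.

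Single circRNAs of CAMK2B differed in where they occurred. Of all 248 pairs of a tested CaM kinase circRNA and a region 3 were called, beside 0.504% of all such pairs. One of them was chr3:82101792-82105468 on the plus strand, which was higher in PCC. It stood at 18.3, 28.1 and 29.5 TPM in the PCC libraries of pools 10F, 20F and 20M, at 0 in that of 10M, and elsewhere only at 7.51 and 10.99 TPM in the CB libraries of 10M and 20M. These 3 PCC libraries lay above all others and the fourth was level with 26 libraries at 0. The log2 difference was 2.45 ± 0.42 (limma adjusted p = 0.0088), and the call was lost without pool 10F, 20F or 20M (adjusted p = 0.123, 0.320 and 0.119), with voom (0.152) and without the 5 libraries with over 95% clean reads (0.198). The most abundant CAMK2B circRNA, chr3:82116221-82116455, was found in 8 libraries and in none from PCC, PFC or PC.

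CAMK2D, the delta subunit, which is also the main CaMKII of the heart, was highest on average in CA1. The 4 CA1 libraries were at 30.5 (10F), 58.2 (10M), 33.5 (20F) and 19.6 TPM (20M), and the other 28 ranged from 0 to 40.6 TPM with a median of 6.65 TPM. The groups overlapped, but no CA1 library was at 0. The log2 difference was 2.12 ± 0.71 (limma adjusted p = 0.314) and the exact permutation test on TPM gave p = 0.0041 (two-sided, unadjusted), so CA1 was not called after adjustment over all genes. In PCC all 4 libraries were listed at 0 (log2 difference -2.29 ± 0.71, limma adjusted p = 0.414). Between these lay CB (20.5 ± 17.7 TPM, SD, n = 4), PC (17.3 ± 17.3), DG (16.2 ± 15.1), PFC (12.3 ± 7.32), TC (7.77 ± 10.7) and OC (5.95 ± 11.9), all overlapping with their neighbours.

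The CA1 level of CAMK2D came from different molecules in different libraries. The circRNA chr5:106321804-106366370 stood at 21.3, 21.8 and 33.5 TPM in the CA1 libraries of 10F, 10M and 20F, and at up to 12.03 TPM in 4 of the other 28 libraries. In the CA1 library of pool 20M it was at 0, and all 68 CAMK2D reads of that library belonged to chr5:106366333-106472906, which was found nowhere else. In the CA1 library of 10M the gene sum was 58.2 TPM, so other circRNAs held more of it than the 21.8 TPM above. A further circRNA, chr5:106356958-106388138, was found in 1 CA1 library, with a mean of 9.095 ± 18.2 TPM over CA1 (SD, n = 4). The log2 difference of the first circRNA in CA1 was 2.33 ± 0.50 (limma adjusted p = 0.0654), and it was called once the pool was entered as a block (adjusted p = 0.0492), pool 20M was left out (adjusted p = 0.0282) or the 5 libraries with over 95% clean reads were left out (adjusted p = 0.00568).

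CAMK2G, the gamma subunit, was the most widely detected of the 7, above 0 in 28 of 32 libraries. It was at 0, 33.1, 9.78 and 39.6 TPM in the CB libraries of 10F, 10M, 20F and 20M, and at 0 to 138 TPM in the others, with a median of 34.2 TPM. The ranges overlapped and no region was called; CB had a log2 difference of -1.11 ± 0.84 (limma adjusted p = 0.628). The means were 57.2 ± 59.7 TPM in DG (SD, n = 4), 53.8 ± 45.6 in PCC, 51.8 ± 26.4 in PC, 44.8 ± 21.3 in OC, 31.2 ± 15.6 in PFC, 29.6 ± 25.7 in CA1, 27.5 ± 11.03 in TC and 20.6 ± 18.8 in CB, and all neighbours overlapped. The circRNA with the study's primers was found in 25 libraries at 3.01 to 126 TPM, and held 51.6% of the reads of the gene.

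CAMKK2, the kinase at the head of the cascade, was higher in CB. Its 4 CB libraries were at 150 (10F), 54.1 (10M), 29.3 (20F) and 30.8 TPM (20M). The other 28 ranged from 0 to 61.2 TPM with a median of 7.02 TPM, and 12 of them were at 0. Only the 10F library lay above every library outside CB, so the groups overlapped. The means were 66.0 ± 57.0 TPM in CB (SD, n = 4) and 13.9 ± 17.7 TPM outside it (n = 28), with a log2 difference of 2.68 ± 0.72 (limma adjusted p = 0.0235) and an exact permutation p of 0.00328 on TPM (two-sided, unadjusted). The 150 TPM of pool 10F rested on 8 reads, and without that library the log2 difference was 2.19 ± 0.81 (limma adjusted p = 0.159). Without the 5 libraries with over 95% clean reads it was 2.54 (adjusted p = 0.0535), and the call was also lost without pool 20M (adjusted p = 0.0845). The sum includes chr11:122485320-122499236, on the strand opposite to the other CAMKK2 circRNAs, which may belong to another gene. That circRNA had a mean of 3.30 ± 6.6 TPM in CB (SD, n = 4), from 1 library, and 0.66 ± 2.45 TPM elsewhere (n = 28). The CB difference without it was not tested.

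CAMKK2 was listed at 0 in all 4 CA1 libraries (log2 difference -2.44 ± 0.72, limma adjusted p = 0.188) and in 3 of the 4 DG libraries, the other being at 8.21 TPM. After CB its order was TC (33.1 ± 25.2 TPM, SD, n = 4), OC (23.9 ± 11.1), PCC (17.9 ± 20.5), PC (14.9 ± 19.6), PFC (5.61 ± 6.82), DG and CA1, and all neighbours overlapped. Its most abundant circRNA, chr11:122341520-122343749, was found in 3 of 4 CB libraries at 112, 34.6 and 20.6 TPM and had a log2 difference of 2.06 ± 0.83 there (limma adjusted p = 0.279).

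CAMK4, the nuclear kinase below CAMKK2 and a kinase known to be abundant in cerebellar granule cells, had the highest single values of the 7 genes. Its CB libraries were at 485 (10M), 308 (20F), 418 (20M) and 0 TPM (10F). The other 28 ranged from 0 to 150 TPM with a median of 27.5 TPM. Thus 3 CB libraries lay above the highest value outside CB, and the shallow one lay at the bottom of the range. At the mean of the other 3 CB libraries, 404 TPM, the shallow library would have held 21.6 CAMK4 reads. Its cerebellar neuron markers summed to 861 TPM, and each read in it was worth 18.7 TPM. The cause of the CAMK4 value of 0 in the shallow library was not tested.

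For CAMK4 the result in CB depended on this library. With all 32 libraries the log2 difference was 2.34 ± 1.06 (limma adjusted p = 0.260), and the exact permutation test on TPM gave p = 0.000807 (two-sided, unadjusted), with means of 303 ± 215 TPM in CB (SD, n = 4) and 44.98 ± 49.1 TPM elsewhere (n = 28). Without the CB library of 10F, an alternative chosen after the data had been seen, it was 4.18 ± 0.99 (limma adjusted p = 0.0107). With voom it was 4.69 ± 0.89 (limma adjusted p = 0.000419), where the median of all host genes moved from -0.07 to 0.56. Voom gives values with few expected reads less weight. It also adds a constant to the reads before scaling for depth, so a 0 stands higher in a shallow library than in a deep one. The part of each in this value was not tested. Of the 12 cerebellar neuron markers 5 were tested, of which 3 were higher in CB and none was lower. Among them GRM4 and CADPS2 were higher in CB in the same samples, with log2 differences of 5.04 ± 0.49 and 3.95 ± 0.65 (limma adjusted p = 2.33e-08 and 0.000123), while RORA was at 0 TPM in all CB libraries and at 4.84 ± 11.7 TPM elsewhere (SD, n = 28; log2 difference -0.71 ± 0.64). The part of these markers in the CAMK4 values was not tested. The cerebellar reads came mainly from chr6:107634401-107685241, which stood at 472, 261 and 376 TPM in the CB libraries of 10M, 20F and 20M and at up to 150 TPM elsewhere.

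At the other end, CAMK4 was nearly absent from PFC, where 3 libraries were at 0 and that of 10F at 4.96 TPM (log2 difference -3.50 ± 1.06, limma adjusted p = 0.300). The other regions had 80.4 ± 58.9 TPM in PCC (SD, n = 4), 72.7 ± 56.7 in CA1, 63.1 ± 49.9 in TC, 43.7 ± 71.2 in DG, 29.6 ± 19.5 in OC and 24.1 ± 21.8 in PC. All neighbours in this order overlapped.

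CAMK1D, a CaMKI isoform, was nearly absent from CB and had its highest mean in PC. In CB it was at 3.01 TPM, or 2 reads, in the library of 10M and at 0 in the others, while 21 of the 28 other libraries were above 0, with a median of 19.2 and a maximum of 82.6 TPM. In the CB library of 10F 2 reads were worth 37.4 TPM, above this median, so the 0 there says little. The log2 difference was -2.48 ± 0.87 (limma adjusted p = 0.101), so the gene was not called in CB. In PC the 4 libraries were at 54.4, 52.5, 19.4 and 58.7 TPM (log2 difference 1.99 ± 0.87, limma adjusted p = 0.472). The regions between were DG (35.3 ± 37.7 TPM, SD, n = 4), CA1 (26.5 ± 22.6), PCC (23.7 ± 31.9), OC (21.5 ± 10.2), TC (16.3 ± 28.9) and PFC (15.6 ± 11.4), with no neighbours apart.

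The circRNA of CAMK1D with the most reads, chr9:13032378-13041508 on the plus strand, was the third that was called, and it was higher in PC. It stood at 38.9 (10F), 29.0 (10M), 19.4 (20F) and 53.6 TPM (20M) in PC, and in the other 28 libraries it was above 0 in 12, at up to 54.6 TPM, with a median of 0. The groups overlapped through the CA1 library of 10M and the DG library of 20M. The log2 difference was 2.82 ± 0.61 (limma adjusted p = 0.0276), and the call was lost without pool 10F, 10M or 20M (adjusted p = 0.156, 0.101 and 0.111). It was lost in 8 of 14 alternatives in all, also with the pseudocount divided by 10, with equal totals, with size factors, with voom and among circRNAs above 0 in at least 16 libraries (adjusted p 0.0511 to 0.238). The second circRNA of the gene, chr9:13086829-13088956, had nearly as many reads, 324 against 365, but was found in 10 libraries and in none from CA1 or CB.

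**Figure D3:**
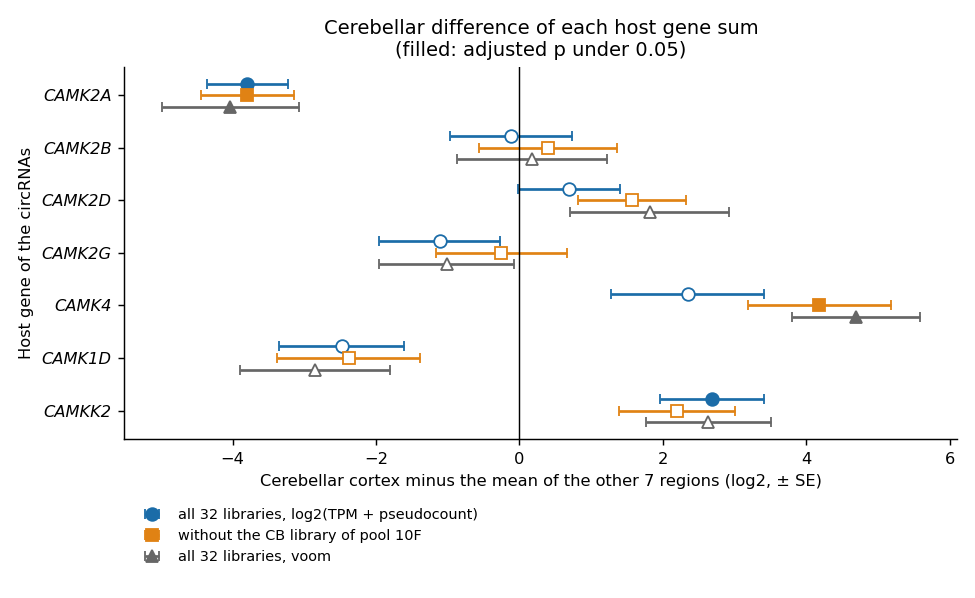
Difference between CB and the mean of the other 7 regions for each CaM kinase gene sum on the log2(TPM + pseudocount) scale, with bars of ± 1 SE. Blue shows the fit with all 32 libraries, orange the fit without the CB library of pool 10F and grey voom, and filled symbols have an adjusted p under 0.05. CAMK2A is filled in all 3, CAMKK2 only with all libraries, and CAMK4 only in the other two.

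Across the 7 genes 49 pairs of neighbouring regions were formed by these orders, and in 1 of them, PC and CB for CAMK2A, the libraries did not overlap. The orders were set by the same values, and no such count was made for other host genes. The position of CB in the orders varied, since it was first for CAMK4 and CAMKK2 and last for CAMK2A, CAMK2G and CAMK1D. The order within CaMKII also varied, with PCC first for CAMK2A and last for CAMK2D. For CAMK2B the sign of the CB difference was not stable, at -0.12 ± 0.85 with all libraries and 0.40 ± 0.96 without the CB library of 10F.

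Whether regions draw on different circRNAs of the same gene was asked with the share of a gene's reads held by its leading circRNA, in libraries with at least 20 reads of the gene. Of 15 gene-by-region pairs tested by exact permutation, 0 were called after adjustment over the pairs, and in 4 the unadjusted p was under 0.05. Leading shares were not computed for other host genes, so these counts have no background beside them. In PFC the leading CAMK2G circRNA held 100%, 68.3%, 100% and 66.7% of the reads in 10F, 10M, 20F and 20M, against 49.0% ± 22.6 (SD, n = 16) in the other libraries (exact p = 0.0107, adjusted p = 0.0989). In PCC the leading CAMK2A circRNA held 54.5% ± 10.1 (SD, n = 3), against 87.5% ± 17.2 elsewhere (n = 12; exact p = 0.0132, adjusted p = 0.0989). The share of the leading CAMK4 circRNA was 97.2%, 84.5% and 90.0% in the 3 CB libraries, and ranged from 0% to 100% elsewhere. These shares differed by less than adjustment over the 15 pairs requires.

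**Figure D4:**
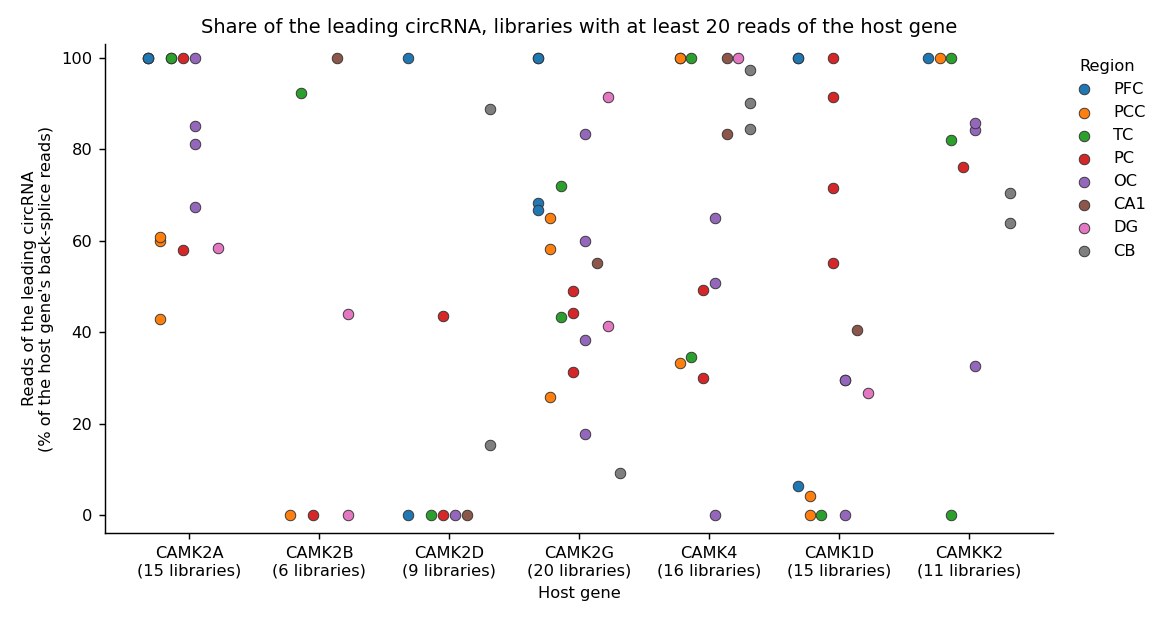
Percent of a gene's back-splice reads held by its leading circRNA on the y axis, for each CaM kinase gene on the x axis, with 1 point per library that had at least 20 reads of the gene, coloured by region. The CAMK4 points of CB lie between 84.5% and 97.2%.

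The study also set 10 against 20 years and females against males. None of the 7 gene sums was called for age by limma, beside 0% of all host genes, and none had an unadjusted p under 0.05, beside 6.02% of all. The smallest unadjusted p was that of CAMKK2 (log2 difference 20 minus 10 years of 0.89 ± 0.45; limma adjusted p = 0.8286). CAMKK2 was at 0 in 4 of 16 libraries at 20 years and in 8 of 16 at 10 years, with medians of 23.3 and 2.81 TPM, but the means, 20.7 ± 16.7 and 20.2 ± 39.6 TPM (SD, n = 16), were close because of the 150 TPM of the shallow CB library. Of its 8 regions, 20F was above 10F in 4, below in 2 and equal in 2, and 20M stood to 10M in the same numbers. Both age groups rest on 2 pools each, and an exact test over pools cannot give a p below 0.333.

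Of the 31 tested circRNAs 0 were called for age by limma, beside 0.0293% of all circRNAs, and 2 had an unadjusted p under 0.05, beside 5.26% of all, while the study's unpaired test of the TPM means gave 0 under that level. One was the second circRNA of CAMK2A, chr6:146718464-146727426, found only at 20 years (log2 difference 0.90 ± 0.39, limma adjusted p = 0.810). The other was chr5:106321804-106366370 of CAMK2D, of whose 7 libraries 6 were from animals of 10 years (log2 difference -0.66 ± 0.31, limma adjusted p = 0.810).

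Between males and females 0 of the 7 gene sums and 0 of the 31 circRNAs were called by limma, beside 0% of all host genes and 0% of all circRNAs. At an unadjusted p under 0.05 there were also 0 and 0, beside 6.55% and 5.31%. CAMK4 had means of 98.2 ± 149 TPM in males and 56.2 ± 76.7 TPM in females (SD, n = 16; permutation p = 0.332, unadjusted), and CAMK2A 44.7 ± 45.9 and 28.9 ± 19.1 TPM (permutation p = 0.230, unadjusted). The age difference was not shown to depend on sex for any of the 7 genes, and the smallest p of this interaction was that of CAMK1D (difference between males and females in the log2 age difference 2.23 ± 1.13, limma adjusted p = 0.811).

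**Figure D5:**
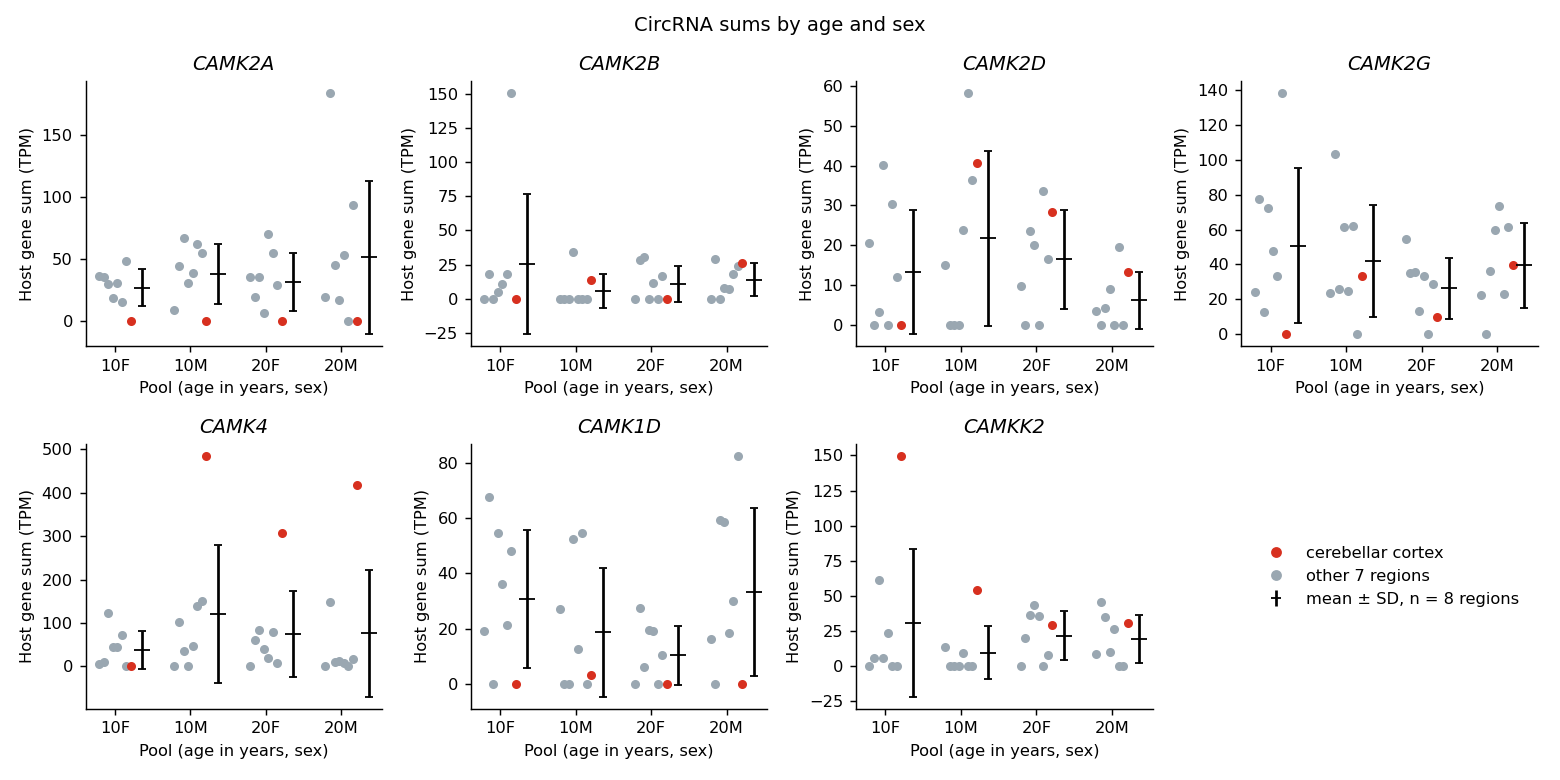
Summed circRNA level (TPM) of each CaM kinase gene in the pools 10F, 10M, 20F and 20M, with 1 point for each of the 8 regions. For each gene the points of all 4 pools overlap, and no gene was called for age or sex.

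Around the CaM kinases, 43 other genes of calcium/calmodulin signalling were listed, of which 38 had a circRNA and 30 were tested. In CB 1 was higher and 2 were lower, beside 5.03% of all host genes called there in either direction, and the median log2 difference of the 30 was -0.43, against -0.07 over all host genes. PPP3R1, the regulatory subunit of the calmodulin-dependent phosphatase calcineurin, was at 39.7 ± 30.7 TPM in CB (SD, n = 4) and 7.08 ± 15.6 TPM elsewhere (n = 28; log2 difference 2.84 ± 0.70, limma adjusted p = 0.0118). DCLK1, a kinase of the CaM kinase family that binds microtubules, was at 7.02 ± 8.15 and 71.1 ± 47.3 TPM (log2 difference -3.16 ± 0.69, limma adjusted p = 0.00421). GRIN2B, the NMDA receptor subunit to which CaMKII binds, was at 1.09 ± 2.18 and 21.0 ± 15.8 TPM (log2 difference -2.42 ± 0.65, limma adjusted p = 0.0241).

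By class, 1 of 8 tested other CaM kinases was lower in CB, 1 of 4 calcineurin genes was higher, 1 of 10 substrates and partners was lower, and 0 of 1 calmodulin genes, 0 of 5 calmodulin-dependent enzymes and 0 of 2 calcium release channels were called there, again beside 5.03% of all host genes. ADCY1, a calmodulin-stimulated adenylyl cyclase, just missed the threshold in CB at 23.5 ± 11.4 against 6.84 ± 12.1 TPM (log2 difference 2.18 ± 0.66, limma adjusted p = 0.0506). In a region other than CB 1 of the 30 was called, namely MYLK, the myosin light chain kinase. It was higher in PFC at 10.5 ± 5.12 TPM (SD, n = 4) against 1.83 ± 4.71 TPM (n = 28). The log2 difference was 1.91 ± 0.41 (limma adjusted p = 0.0374). Of all gene-by-region pairs 0.859% were called, a share that counts pairs and not genes and that includes CB. The share of host genes called outside CB was not computed. For age and for sex 0 of the 30 were called by limma, beside 0% of all host genes.

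The host genes whose summed circRNA levels ran most like those of each CaM kinase were picked among 2433 genes by Pearson correlation of log2(TPM + 2.455) over the 32 libraries, as a description in libraries that share depth and animals. They were LRRC4C (r = 0.78) and GRM5 (0.75) for CAMK2A, CSMD2 (0.71) and TTLL11 (0.68) for CAMK1D, and NRG1 (0.73) and ACSS3 (0.63) for CAMKK2. For CAMK2G they were SCN8A and FAM13A (both 0.67), for CAMK4 WDSUB1 (0.66) and DAP3 (0.63), for CAMK2D NDUFAF2 (0.63) and CLSTN1 (0.56), and for CAMK2B KIF21A (0.59) and PGBD5 (0.55). No CaM kinase gene was among the 2 most like another.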

How the data were processed

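CircRNAs were measured by sequencing rRNA-depleted, RNase R-treated RNA of 32 pooled libraries. The authors trimmed reads with Cutadapt, mapped them with BWA and called back-splice junctions with CIRI2, and deposited 1 table with TPM values per circRNA; the genome build is not given in the sources used here. The methods name a normalization of counts by size factors, while the table is described as TPM. Within a library the deposited TPM values were whole multiples of a step (largest distance from a whole number 0.0181) that started at 2 steps, and were read as reads. The library totals set the precision.

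Host gene sums were formed over all circRNAs of a gene ID. A circRNA was kept (17050), and likewise a host gene (5484), if at least 3 reads were found in 2 libraries of each of 2 regions, in 2 libraries of 1 region and 6 libraries in all, or if it had 30 reads in all. Of the 71 circRNAs 31 passed, and the others were not tested. limma 3.58.1 in R 4.3.3 was fitted to log2(TPM + 2.455), the pseudocount being the median of the smallest values above 0. The models used region, or age or sex with region and the other factor, and Benjamini-Hochberg adjustment over all features. The fits for CB and for age were also run on simulated host gene sums with known changes and no effect of pool. Single circRNAs were not simulated. Exact permutation tests went through every choice of libraries. The permutation p-values for sex came from 100000 random resamples with SciPy 1.17.1 and are not exact. Symbols came from the supplied gene names.

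The members, the lists of pathway and marker genes and the tests were chosen with earlier results of these data known. Named are all 7 host genes, per gene the 3 circRNAs with most reads or fewer, the 2 with primers, those in at least 16 libraries and those called. The alternatives were other pseudocounts, filters, scalings, voom, the pool as a block, leaving out each pool, 5 libraries with over 95% clean reads or, added after seeing the data, the CB library of 10F. The 5 libraries with over 95% clean reads were PFC and PCC of 20F, PC of 10M, and CA1 and DG of 20M. Pools pair libraries, since 1 pool is the same animals in every region. The median correlation of deviations was 0.021 within pools (112 pairs) and -0.0082 between them (336 pairs).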

Additional observations from a re-analysis of the deposited data

Results flagged for a closer look

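In 52 groups of 4 libraries of a gene and region, 11 had a library far from the other 3 by Dixon's test at the 95% level. The rate of about 1 in 20 groups at this level holds for normally distributed values, and these TPM values hold many zeros. The share flagged among other host genes was not computed, so the 11 are not read as an excess. In 5 of these the other 3 libraries were at 0, which gives a flag by construction, and 4 further groups, all at 0, could not be tested. CAMK2A reached 183.75 TPM in PCC of pool 20M, against 19.25 to 44.23 TPM. CAMK2B reached 150.41 TPM in DG of 10F, against 0 to 23.72 TPM, and 30.66 TPM in TC of 20F, with the others at 0. CAMK2D stood at 23.81 TPM in OC of 10M alone. CAMK2G stood at 54.61 TPM in PFC of 20F, against 22.67 to 23.99 TPM. CAMK4 reached 149.96 TPM in DG of 10M, against 0 to 16.69 TPM, and 4.96 TPM in PFC of 10F alone. CAMK1D was at 59.43 TPM in TC of 20M, against 0 to 5.90 TPM, at 19.35 TPM in PC of 20F, the low value against 52.49 to 58.74 TPM, and at 3.01 TPM in CB of 10M alone. CAMKK2 was at 8.21 TPM in DG of 20F alone.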

How the results depend on the processing

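The lower CAMK2A level in CB was called under all 14 alternatives (-6.89 to -3.71 on the log2 scale, adjusted p 1.36e-06 to 0.00612). The CAMKK2 difference in CB kept its sign in all 14 and its call in 7. The call was lost with the pseudocount divided by 10 (4.15, adjusted p = 0.0832), with equal library totals (2.38, 0.0556), with voom (2.63, 0.0802), without the 5 libraries with over 95% clean reads (2.54, 0.0535), without the CB library of 10F (2.19, 0.159) and, when pools were left out (2.14 to 3.18), without 10F or 20M. CAMK4 in CB became called with voom (4.69), without the CB library of 10F (4.18) and without pool 10F (leaving out pools 1.40 to 4.22). CAMK2B in CB changed sign, uncalled, with voom (0.17), without the 5 libraries (0.11), without the CB library of 10F (0.40) and when pools were left out (-0.88 to 0.61). The 3 called circRNA-by-region pairs became 1 among circRNAs above 0 in at least 16 libraries, 6 without the CB library of 10F and 2 to 5 when pools were left out. They became 2 with the pseudocount divided by 10, with equal totals and with size factors, where CAMK1D in PC was lost. With voom they became 4, of which CAMK2A in CB was the 1 shared, CAMK4 in CB and in PFC and CAMK2G in PFC being gained. In CB the 1 called circRNA became 2 with voom, 4 without that library and 1 to 5 when pools were left out. The 2 called gene sums, over all regions and in CB, became 1 with the pseudocount divided by 10, with equal totals and without the 5 libraries, and 1 to 2 when pools were left out. Over all regions voom gave 3, with CAMKK2 lost and CAMK4 in CB and CAMK2B in PFC gained. No leading share was called, but leaving out pools gave 0 to 2 (2 without 10M). Counts for age and sex were 0 under all 17 alternatives. The replicate block of pools left the gene sums called over all regions at 2 and changed 1 named call, CAMK2D in CA1. Voom moved the median of all host genes in CB from -0.07 to 0.56, with 155 higher and 72 lower against 152 and 124. The planned edgeR test was not run, and voom was run on the recovered reads. Of 224 gene-by-library values 64 were 0, each standing for fewer than 2 reads. The cause of the changes was not tested.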

Other observations

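The CA1 library of pool 20M had 811958 back-splice reads, among the deepest, and CAMK2A and CAMK4 were listed at 0 in it. At the means of the other 3 CA1 libraries, 43.8 and 97.0 TPM, it would have held 152 and 336 reads of these genes. The same library held 104 reads of CAMK1D, 80 of CAMK2G, 68 of CAMK2D and 62 of CAMK2B. The PCC library of pool 20F, the deepest with 894932 reads, held 199 reads of CAMK4, 63 of CAMK2A and none of CAMK2D. Both libraries were among the 5 with over 95% clean reads, and the part of this in their values was not tested.

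CAMK1, a close relative of CAMK1D that was outside the 7 genes, had circRNA reads in all 32 libraries, with 145 ± 62.2 TPM in CB (SD, n = 4) and 248 ± 167 TPM elsewhere (n = 28; log2 difference -0.45 ± 0.63, limma adjusted p = 0.823).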
